A study of Homo sapiens with 2 samples.

Results

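The regions described here are the PRDM1 peaks that held 25 to 49 sequencing tags in U266. This is an established cell line grown from a human multiple myeloma. They numbered 1650 of the 9669 peaks in the complete deposited list, or 17.1% (95% Wilson interval 16.3 to 17.8). They were chosen by their tag count alone, and none of them is in the shorter list of 887 peaks that the authors filtered at a minimum of 50 tags and a false discovery rate (FDR) of at most 5%. Both groups of the series are U266 cells, described in the labels as a plasma cell lymphoma. One is the chromatin immunoprecipitation library made with the rabbit antibody C14A4 against PRDM1, and the other is input DNA without an antibody. There was 1 sample of each kind and no replicate sample, and peaks were called on merged alignments. Every interval below therefore covers the counting of tags or peaks within these samples only. The PRDM1 library kept 7854466 tags and the input 8556458 tags after duplicates were removed. The series design speaks of a second myeloma line, which was not analysed here.

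PRDM1 (BLIMP-1) represses transcription through zinc fingers that bind DNA, and it drives B cells to become antibody-secreting plasma cells. It recruits histone-modifying enzymes to its sites and is known for silencing genes of the B cell programme, among them PAX5, CIITA and MYC. Multiple myeloma is a tumour of plasma cells, which express PRDM1. Genes and DNA sequence near the peaks were not analysed here, because no annotation or genome sequence of the build of the files was used.

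The 1650 peaks were narrower and lower than stronger peaks, and wider and taller than weaker ones, as their choice by tag count led to. They covered 1.81 Mb and held 55821 tags, 0.711% of the PRDM1 library, with a median of 32 tags. The 667 peaks of 50 to 99 tags covered 1.01 Mb and held 44733 tags, and the 2376 peaks of 15 to 24 tags covered 1.96 Mb and held 44189 tags. Counted this way, the intermediate peaks held more PRDM1 tags than either neighbouring class, but such sums depend on where the class limits were placed. The filtered list, which has no upper limit, held 78941 tags. Their median width was 1065.5 bp (interquartile range 926 to 1238), against 1430 bp in the stronger class (50 to 99 tags) and 816 bp in the weaker one (15 to 24 tags). Their median summit height, the number of 200 bp fragments stacked at the highest point, was 16 (12 to 20), against 28 and 10. Their median density was 30.7 tags per kb of peak, against 44.9 and 22.2.

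The input background under the intermediate peaks overlapped widely with that of both neighbouring classes. The background is the level of input reads around a peak, recovered from the deposited score and given relative to the genome mean. Its median was 1.58 times the genome mean for the intermediate peaks, 1.58 in the stronger class and 1.42 in the weaker one. It takes steps of whole input tags, so equal medians say little of the spread. The quartiles were 1.2 and 2.12 for the intermediate peaks, 1.2 and 2.25 in the stronger class and 1.1 and 1.86 in the weaker one. A background of at least 3 lay under 8.67% of the intermediate peaks, 11.7% of the stronger class and 0.673% of the weaker one. No peak of the complete list scored under 50. Few tags on a high background give a low score, so the small share in the weaker class is partly built in. The tags over expected, which divide the scaled PRDM1 tags of a peak by those its background predicts, had a median of 6.67 (interquartile range 4.8 to 9.04). The median was 9.6 in the stronger class and 5.24 in the weaker one. At least 5 times the expected tags lay in 1188 of the 1650 peaks (72%), where 67.1% of the complete list reached that level. At least 10 times the expected tags lay in 304 (18.4%), where the share of the complete list was 8.52%. The highest levels were rare, since 2 intermediate peaks reached 20 times. These values come from the same comparison that chose the peaks and are given as a description.

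**Figure D1:**
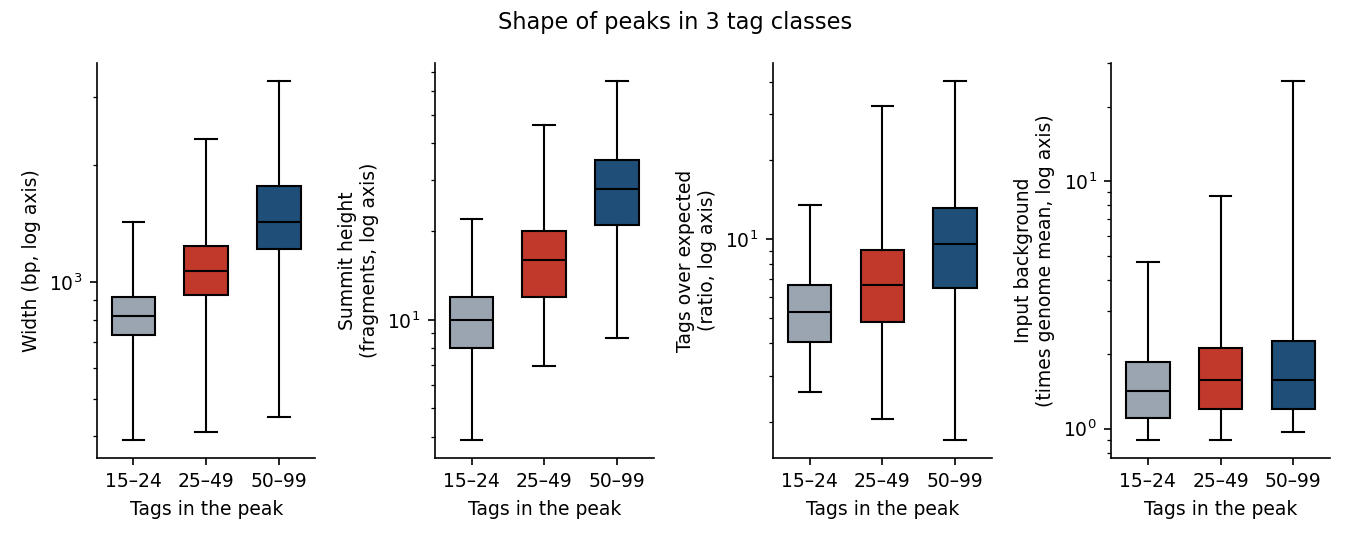
Width (bp), summit height (stacked fragments), tags over expected (ratio) and input background (times the genome mean), each on a log axis, for peaks of 15 to 24, 25 to 49 and 50 to 99 tags. Boxes span the quartiles with the median as a line, and whiskers reach the lowest and highest peak. Median width, height and tags over expected rise with the class. The median background is 1.58 in both upper classes, with upper quartiles of 2.12 and 2.25.

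Most intermediate peaks passed the FDR limit of the authors and were set aside by the tag minimum only. For this caller the FDR at a given score is the number of peaks found when PRDM1 and input trade places, relative to the number found in the true direction. It was at most 5% for 1536 of the 1650 peaks (93.1%), against 43.5% of the complete list, 58.9% of the weaker class and 98.8% of the stronger one. It was at most 1% for 1397 (84.7%), against 30.2% of the complete list. It was 0 for 256 (15.5%), against 10.7% of the complete list, 0% of the weaker class and 83.7% of the stronger one. These 1536 made up 46.3% of the 3320 peaks under 50 tags with such an FDR.

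Within the class, the share that passed the FDR limit was high from its lower end on. The share was 90.6% for peaks of 25 to 29 tags and 91.3% for 30 to 34. It then rose to 94% for 35 to 39, 97.8% for 40 to 44 and 98.2% for 45 to 49. An FDR of 0 was spread far less evenly. None of the 553 peaks of 25 to 29 tags had it, against 14 of 426, 57 of 281, 90 of 226 and 95 of 164 peaks in the next steps of 5 tags. The lowest score with an FDR of 0 was 271.4, and the highest score among the peaks of 25 to 29 tags was 266.3. A score rises with the tags, so the uneven spread of an FDR of 0 is largely built in. The score is 10 times the −log10 of the caller's Poisson p.

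Peaks just outside and just inside the limits of the class had the following values. Just outside the lower limit, 131 of the 157 peaks of 24 tags had an FDR of at most 5%, with a median score of 128.5. Just inside it, 114 of the 124 peaks of 25 tags did, with a median score of 132.7. At the upper limit, 21 of the 23 peaks of 49 tags passed, with a median score of 268.7, and all 31 peaks of 50 tags passed, with a median score of 325.9. The best peak of 24 tags (chr5:169720185-169720738) scored 196.3 at a fold of 20, and the best of 25 tags (chr7:5816194-5816913) scored 204.1 at a fold of 22.1. The best peak of 50 tags (chr8:146029849-146030622) scored 527.2, below the best of 49 tags, which scored 604.4.

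At a fixed number of tags the score varied widely. The background was solved from the score and the tags, so at a fixed count it varied with the score by construction, apart from peak width. Among the 23 peaks of exactly 49 tags the score ran from 60.4 to 604.4. The lowest of them (chr2:526565-527796) lay on a background of 6.63 times the genome mean, held 2.05 times the expected tags and had an FDR of 24.5%. The highest lay on a background of 1 times the genome mean. A tag minimum treats both alike.

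**Figure D2:**
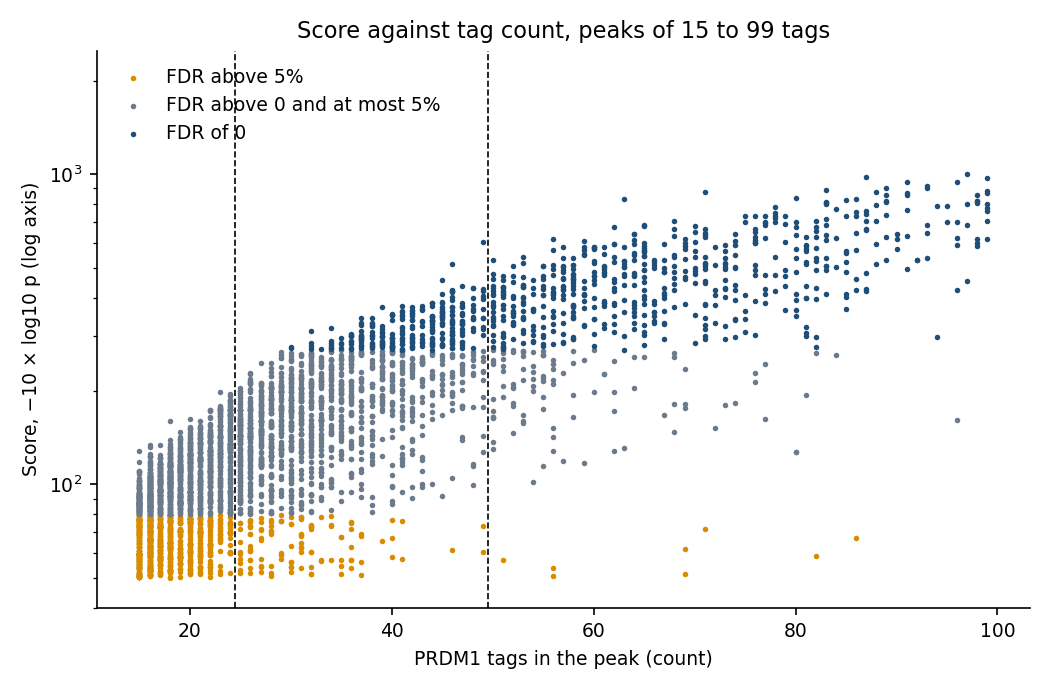
Score (10 times the −log10 of p, log axis) against the number of PRDM1 tags for each peak of 15 to 99 tags, coloured by FDR, with dashed lines at the limits of the class. Peaks with the same number of tags spread widely in score, from 60.4 to 604.4 at 49 tags, and an FDR of 0 first appears at 30 tags.

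Many intermediate peaks matched or passed the weakest peaks of the filtered list by other measures. The lowest score in the filtered list was 101.5, at a peak of 54 tags (chr7:139887933-139889640), and 1413 of the 1650 intermediate peaks (85.6%) scored at least as high. The 10th percentile of the filtered scores, 259.3, was reached by 307 (18.6%), the 25th percentile by 47 and the median of 497.8 by 2. By tags over expected the classes overlapped more. The filtered median of 10.4 was reached by 246 intermediate peaks (14.9%), and the 25th percentile of 7 by 745 (45.2%). By the deposited fold, the ratio of summit height to background, 129 (7.82%) reached the filtered median of 31.4.

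The strongest intermediate peaks stood on a background close to the genome mean, the lowest level the caller uses. The background was solved from the score, so a low one at the highest scores is largely built in. The highest score and the highest fold belonged to the same region, chr1:206137895-206138412, which is 518 bp wide. It held 49 tags where 1.64 scaled tags were expected, a ratio of 32.3 (exact 95% Poisson interval of the tags 23.9 to 42.7), with a summit of 46 fragments and a fold of 72.6. Nearly all of its tags therefore overlapped at the summit. Next by score came chr19:50093824-50094456, with 46 tags, a ratio of 24.7 (18.1 to 32.9) and a fold of 42.2. Then followed chr3:128522756-128523544 with 45 tags and a ratio of 19.6 (14.3 to 26.2), and chr5:118703399-118704317 with 47 tags and a ratio of 16.3 (12 to 21.7). The fifth, chr12:127258698-127259761, held 48 tags at a ratio of 15.4 (11.4 to 20.4). It lay 1151 bp from a filtered peak of 67 tags.

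A further pair of regions was among the first 5 by fold. They were chr7:99942105-99943147, with 43 tags and a fold of 50.5, and chr3:138050059-138051065, with 42 tags and a fold of 50. In each, 32 fragments were stacked at the summit. The backgrounds of all 7 regions named here as strongest by score or fold were between 1 and 1.07 times the genome mean. Their widths ran from 518 to 1064 bp, where the median of the class was 1065.5 bp.

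The 114 intermediate peaks with an FDR above 5% stood on high input backgrounds. Their median background was 3.16 times the genome mean, against 1.51 in the 1536 that passed. They held a median of 2.67 times the expected tags, against 6.92, and were wider, with a median of 1183.5 bp against 1059 bp. Their tag counts were similar, with medians of 30 and 33. The FDR goes by the score, and the background was solved from the score and the tags. At similar tag counts a low score therefore gives a high background and a low ratio by construction. The lowest score, 50.5, was at chr8:119577025-119577925, with 28 tags, a background of 4.42 and a ratio of 2.38 (1.58 to 3.44). Next were chr20:29811505-29812406 with 37 tags on a background of 6.63, and chr7:57551016-57552254 with 35 tags on a background of 4.48. Regions chr4:548588-549626 and chr9:36763632-36764962 each held 32 tags where 15 scaled tags were expected. The highest background of all, 8.72, was at chr8:82754480-82755094, with 35 tags and an FDR of 38.1%.

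Each recovered background was assigned to the part of the input whose tag count it fitted. The caller takes the highest of several input levels, and nearly every recovered background was a whole number of input tags in one of them. In 688 of the 1650 intermediate peaks (41.7%, 39.3 to 44.1) that was the window of 1 kb, with a median of 6 input tags. In 478 (29%) it was the window of 10 kb, with a median of 43.5 input tags. In 226 (13.7%) it was the peak itself, where the input held a median of 6 tags. In 249 (15.1%) the background was the genome mean, so no nearby input level was higher, and 9 peaks matched none of these. The window of 1 kb was tried before that of 10 kb. A count in 10 kb that is a multiple of 10 also fits a whole number in 1 kb. The 688 may therefore include peaks set by the window of 10 kb, which the interval does not cover.

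The source assigned to the background went with the FDR. Among the 114 peaks above 5%, the window of 1 kb set it in 81 (71.1%) and the peak itself in 27 (23.7%), with medians of 10 and 12 input tags. None of the 114 was at the genome mean. Among the 256 peaks with an FDR of 0, the genome mean set it in 93 (36.3%) and the window of 10 kb in 89 (34.8%). A higher background lowers the score by construction. Between tag classes the shares moved less. The window of 1 kb set the background of 32% of peaks in the weaker class and 45.3% in the stronger one, and the genome mean 18.9% and 15.7%.

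**Figure D3:**
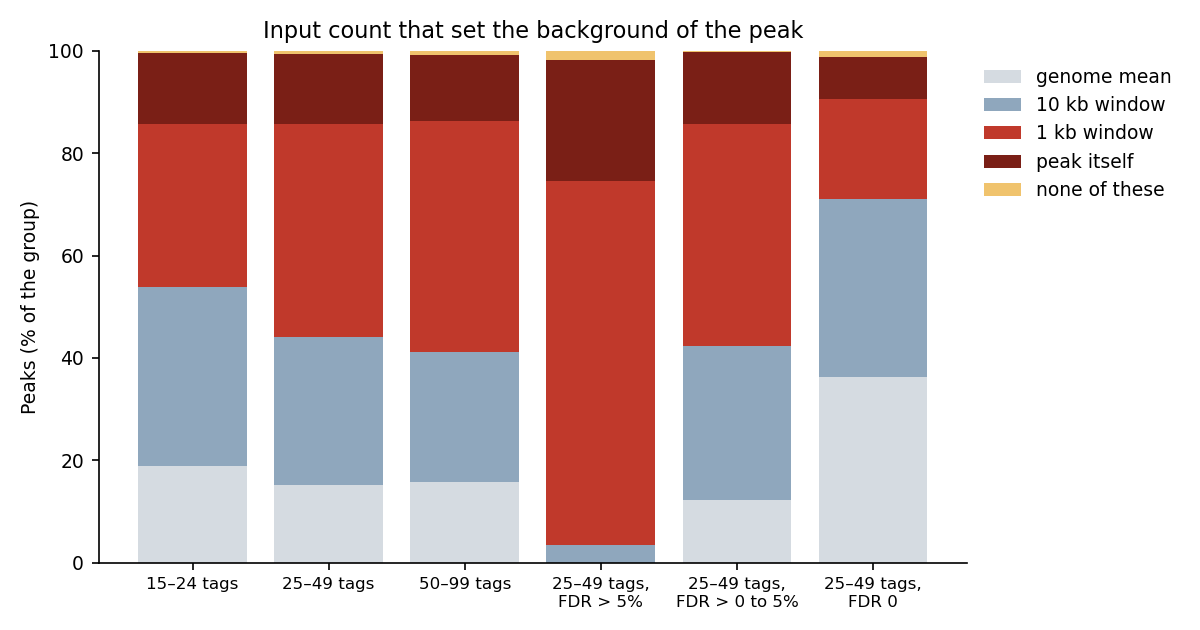
Share of peaks (% of the group) by the input level assigned to their background, for 3 tag classes and for the peaks of 25 to 49 tags split by FDR. The genome mean, in light grey, is absent above an FDR of 5% and makes up 36.3% at an FDR of 0.

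The 5 widest intermediate peaks held 2.15 to 3.68 times the expected tags, where the median of the class was 6.67. Expected tags grow with the width and the class ends at 49 tags, so low ratios here are largely built in. The widest, chr19:3368779-3371116, spanned 2338 bp and held 49 tags, 2.27 times the expected number (1.68 to 3), with an FDR of 8.08%. Next came chr11:71706899-71709063 with 2165 bp and 47 tags, chr14:32436400-32438519 with 2120 bp and 42 tags, and chr1:45087821-45089937 with 2117 bp and 41 tags. The FDR of these was 0.18%, 0.3% and 0.42%. The fifth, chr7:157923394-157925435, had 2042 bp, 41 tags and an FDR of 30.5%. Their summits were 9 to 12 fragments high. The peaks on chromosomes 11 and 14 lay 172 and 592 bp from a filtered peak, of 188 and 73 tags.

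The number of intermediate peaks on a chromosome did not follow its length alone, and the choice by tags did not use position. Against chromosome length, 6 of 24 chromosomes held more than expected and 4 held fewer (exact two-sided binomial test, Benjamini-Hochberg over 24). In the complete list the shares of chromosomes called were 33.3% above and 20.8% below. The ratios of the complete list lay on the same side of 1 on each chromosome called here, so nothing particular to the intermediate peaks is read from it. They were 1.92 on chromosome 19, 1.34 on 1, 1.39 on 17, 1.42 on 7, 1.29 on 15 and 1.13 on 2, and 0.223 on X, 0.481 on 13 and 0.625 on 4. Chromosome 19 held 75 intermediate peaks, 2.38 times the number expected (95% Poisson interval 1.87 to 2.98, exact binomial adjusted p = 2.20e-10). On chromosome 1 lay 207, or 1.56 times (1.35 to 1.79, exact adjusted p = 2.13e-09). On chromosome 17 lay 67, or 1.55 times (1.2 to 1.97, exact adjusted p = 0.00224). Smaller excesses were found on chromosomes 7 (1.36 times), 15 (1.35) and 2 (1.2), by the same exact test at adjusted p = 0.00361, 0.0285 and 0.0468. Length predicted 82.8 intermediate peaks on X but 24 were found there, 0.29 times as many (0.186 to 0.431, exact adjusted p = 4.70e-13). Chromosome 13 held 26, a ratio of 0.424 (0.277 to 0.621), chromosome 4 held 55, a ratio of 0.54 (0.407 to 0.703), and chromosome Y held 1 (exact adjusted p = 1.79e-06, 1.33e-06 and 1.20e-11).

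The median input background of the intermediate peaks also differed between chromosomes. Where fewer peaks than expected lay, it was 1 times the genome mean on X and Y, 1.3 on 13 and 1.51 on 4. Where more lay, it was 1.45 on 17, 1.55 on 19, 1.58 on 2, 1.67 on 1, and 1.89 on 7 and 15. On the chromosomes not called it ran from 1.21 on 18 to 2.11 on 21. Copy number, alignable length and gene density were not analysed. The part of these and of the background in the counts was not tested. Some of the calls were lost under other choices of members or length. Chromosome 2 no longer passed under 7 of 8 alternatives, chromosome 15 under 4, chromosomes 7 and 17 under 3 each and chromosome 13 under 2. Among the 1536 peaks with an FDR of at most 5%, chromosomes 2 and 7 no longer passed, at 1.21 and 1.25 times. At 40 to 49 tags chromosomes 2, 7, 13, 15 and 17 did not. With the 256 peaks of FDR 0 none of the 24 chromosomes passed, and 4 had an unadjusted exact binomial p under 0.05.

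**Figure D4:**
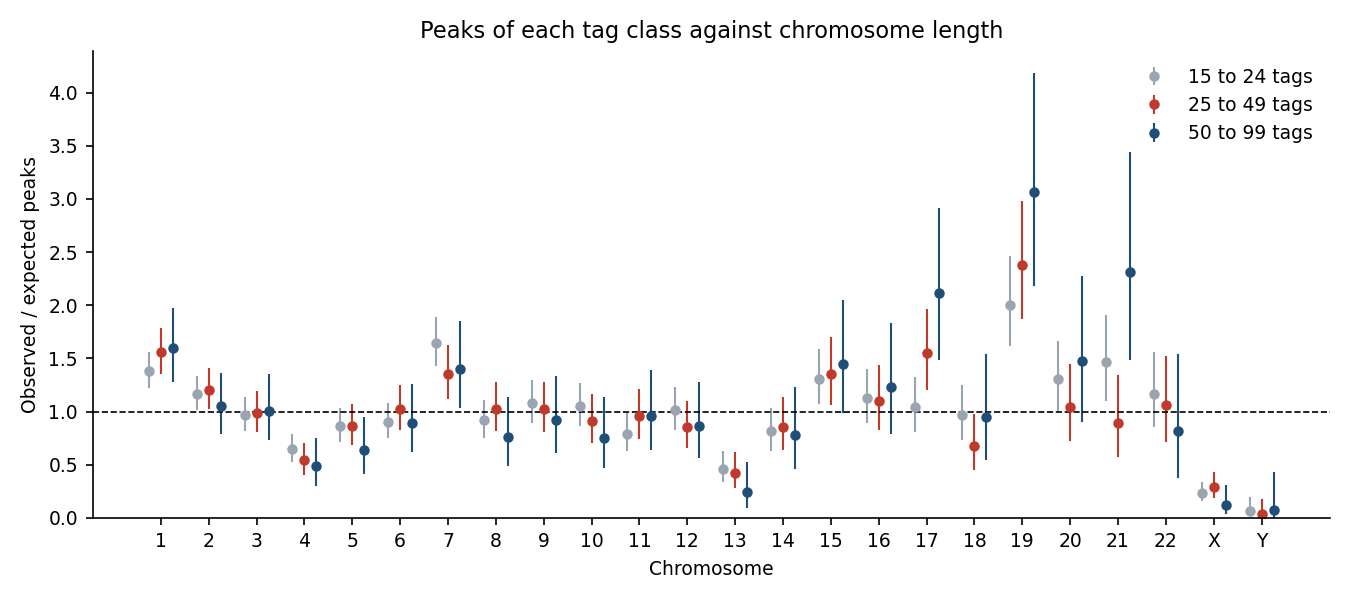
Observed over expected number of peaks on each chromosome, by length, for peaks of 15 to 24, 25 to 49 and 50 to 99 tags, with exact 95% Poisson intervals as bars. Chromosome 19 is above 1 and X, 4 and 13 are below 1 in all 3 classes. On chromosome 21 the interval of the intermediate class includes 1, and those of both others lie above 1.

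The share of peaks on chromosome 21 differed between the intermediate and the stronger class. This chromosome was singled out after all 24 chromosomes had been compared. That chromosome held 23 intermediate peaks (1.39% of the class), 24 peaks of 50 to 99 tags (3.6%) and 54 peaks of 15 to 24 tags (2.27%). Relative to its length these were ratios of 0.897 (0.568 to 1.35), 2.31 (1.48 to 3.44) and 1.46 (1.1 to 1.91). The intermediate class was thus near the number expected, and the stronger class departed most. In the complete list the share was 1.81% and the ratio 1.16 (0.998 to 1.35). The difference to the stronger class was -2.2 percentage points, with a Newcombe interval of -5.22 to -0.162 adjusted over 24 chromosomes and of -5.47 to -0.0408 adjusted over all 48 comparisons. The difference to the weaker class was -0.879 points and its adjusted interval, -2.2 to 0.551, included 0. On the other 23 chromosomes neither adjusted interval excluded 0. Chromosome 17 had a share of 4.06% against 2.74% at 15 to 24 tags, an interval of 0.2 to 2.54 points before adjustment and of -0.432 to 3.3 after it. The difference on chromosome 21 rests on few peaks, and with the members limited to 40 to 49 tags or to an FDR of 0 its interval included 0. The median background of the intermediate peaks there was 2.11 times the genome mean, the highest of any chromosome. Chromosome 21 also had the highest median in the stronger class (2.04), the weaker class (1.74) and the complete list (1.58). The part of the background in the difference was not tested.

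Close neighbours were counted next, a feature the choice did not use. Of the intermediate peaks, 308 (18.7%, 16.9 to 20.6) had any other deposited peak at most 10 kb away, against 21.4% of the stronger class and 17.9% of the weaker one. The differences were -2.77 points (95% Newcombe interval -6.51 to 0.762) and 0.737 points (-1.67 to 3.19), so neither excluded 0. Within 2 kb the intermediate share was 8.85% against 11.7% in the stronger class, a difference of -2.85 points (-5.8 to -0.183). Within 50 kb it was 50.2% against 54.9%, a difference of -4.69 points (-9.14 to -0.197). These distances run between edges, and the intermediate peaks are the narrower ones. Between summits both intervals included 0, at -1.34 points (-3.89 to 0.898) within 2 kb and -4.37 points (-8.83 to 0.127) within 50 kb. Against the weaker class no interval excluded 0 at 2, 10 or 50 kb. The share within 10 kb did not move steadily with tags inside the class. It was 19.3% for 25 to 29 tags, 17.8% for 30 to 34, 20.6% for 35 to 39, 15.9% for 40 to 44 and 18.9% for 45 to 49.

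**Figure D5:**
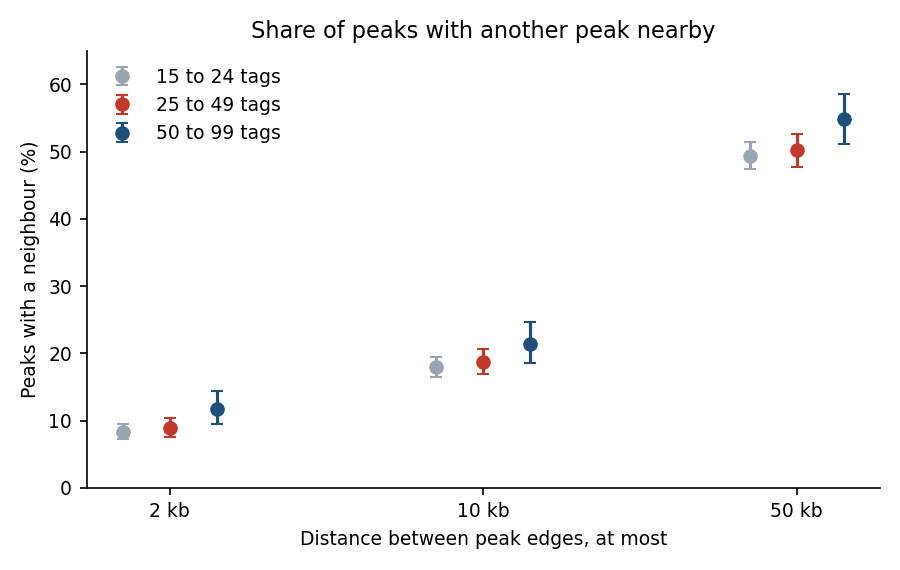
Share of peaks (%) with another peak of the complete list within 2, 10 or 50 kb between edges, for 3 tag classes, with 95% Wilson intervals as bars. The intermediate class, at 18.7% within 10 kb, lies between the others at each distance.

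Few intermediate peaks lay close to filtered ones, at shares similar to those of both neighbouring classes. A filtered peak lay within 10 kb of 53 of the 1650 (3.21%, 2.46 to 4.18) and within 2 kb of 22 (1.33%). The shares within 10 kb were 3.2% in the weaker class and 2.85% in the stronger one, and the median distance to the nearest filtered peak was 626 kb. Where a neighbour lay within 10 kb, it was a peak of 9 to 14 tags for 121 of the 308 and another intermediate peak for 61. These are 39.3% and 19.8%, where such peaks make up 49.1% and 17.1% of the complete list. The nearest peak held 15 to 24 tags for 25.3%, 50 to 99 for 9.74% and 100 or more for 5.84%. Such peaks make up 24.6%, 6.9% and 2.38% of the complete list. The closest case was chr17:33401071-33402156 with 27 tags, 16 bp from a filtered peak of 56 tags. Then came chr21:44820253-44821481 with 27 tags, 39 bp from a peak of 64 tags, and chr16:89036430-89037596 with 29 tags, 49 bp from a peak of 88 tags. The region chr2:74042668-74044168, with 37 tags, lay 68 bp from a peak of 53 tags. The fifth was the wide region on chromosome 11 given above.

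Some intermediate peaks adjoined each other, so that a tag minimum applied to each alone left out both. There were 13 such pairs with at most 2 kb between them, and they held 57 to 77 tags together. Another intermediate peak lay this close to 1.58% of the class, to 1.89% of the weaker class and to 2.25% of the stronger one. In 10 pairs both peaks had an FDR of at most 5%. The closest pair, 75 bp apart, was chr19:49976884-49977757 and chr19:49977833-49978930, with 29 tags each. The pair with the most tags lay on chromosome 1, where chr1:24552909-24553694 held 44 and chr1:24554489-24555478 held 33, at a distance of 794 bp. Any pair of peaks of this class reaches 50 tags by construction. Chromosome 1 held 5 of the 13 pairs, 12.5% of the intermediate peaks and 10.8% of the complete list. This small count was not tested.

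The genome was also divided into windows of 1 Mb. Of 3113 windows of 1 Mb, 1031 held the summit of at least 1 intermediate peak, and 641 of those (62.2%) held no filtered one. Of all 3113 windows, 79.9% held no filtered peak. These 641 windows contained 925 of the intermediate peaks (56.1%). The fullest windows held 8. One began at 78000001 on chromosome 15 and had no filtered peak among its 11 peaks. Its 8 intermediate peaks held 26 to 46 tags, from chr15:78251587-78253012 with 46 tags and 5.01 times the expected number to chr15:78995457-78996388 with 33 tags and 7 times. In 7 of them the FDR was at most 5%, and the exception, chr15:78833490-78834508, had 46.2%. The other began at 234000001 on chromosome 1, with 1 filtered peak among 16, and its intermediate peaks held 26 to 41 tags, 7 of them at an FDR of at most 5%. The median background was 2.1 times the genome mean in the first window and 2.4 in the second. These windows were singled out after their values were seen and were not tested.

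Summits lay near the middle of most intermediate peaks, another feature the choice did not use. In 1532 of 1650 (92.8%, 91.5 to 94) the summit fell in the central 50% of the region. This was 1.81 percentage points below the 94.7% of peaks of 15 to 24 tags (95% Newcombe interval -3.39 to -0.299 for the difference). The interval included 0 for the central 33.3% of the width, at 0.5 points (-2.16 to 3.11), and for members of 30 to 49 tags, at -1.22 points (-3.04 to 0.424). It was 94.5% at 50 to 99 tags, and that difference, -1.6 points, had an interval of -3.62 to 0.706. Within the class, central summits were less frequent among the 114 peaks with an FDR above 5%, at 82.5% (74.5 to 88.3), than among the others, at 93.6% (92.3 to 94.7). That difference was -11.2 points (-19.2 to -5.12). The 114 peaks were also wider, at a median of 1183.5 bp against 1059 bp. The position is taken relative to the width, and the part of width in the difference was not tested. Among the peaks with an FDR of at most 5%, the interval of the difference to 15 to 24 tags included 0, at -1.04 points (-2.61 to 0.45).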

How the data were processed

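The submitters' processing notes name Bowtie 0.12.7 as well as CASAVA 1.8.2 and MACS 1.4. Peaks were called with MACS 1.4.1 on merged alignments, per the file headers. Tags are raw counts of PRDM1 reads per peak after removal of duplicates, per the file headers. The score is 10 times the −log10 of p, the fold is the ratio of summit height to background, and the FDR is a percent, all as deposited by the authors. The build is not given in the sources used here. Against chromosome lengths typed by hand, every peak fitted GRCh37, while 7 intermediate peaks ended past a chromosome of GRCh38 and 16 of NCBI36, so coordinates are read as GRCh37, 1-based.

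Expected tags were solved from the deposited score, taking the tags times 1.09 (input over PRDM1 tags), rounded down, as the Poisson count over the peak. Multiplied by the fold they gave a whole summit height within 0.06 fragments for 99.6% of the 1650 peaks. For 3 of them the background fell under 0.98 of the genome mean, so the recovery failed, and they were kept. A background was assigned to a window when it was a whole number of input tags within 0.004 (0.02 for 10 kb). Where more than 1 level fitted, the order of choice was the genome mean, 1 kb, the peak itself and 10 kb. Wilson, Newcombe and exact Poisson intervals have 95% confidence and cover counting only. Analyses used Python 3.11.15, scipy 1.17.1 and statsmodels 0.14.6. The solving and the chromosome test were tested on simulated data, and the distances on a small made-up list. The simulated scores used the same Poisson formula as the solving, so they could not show that the caller computed its scores this way. Named regions were the first 5 by score, fold, width and nearness to a filtered peak, the 5 lowest scores above an FDR of 5%, and the best peaks at the limits; others are extremes, pairs or windows singled out afterwards. The class, the rules and the tests were chosen with earlier results of these data known.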

Additional observations from a re-analysis of the deposited data

How the results depend on the processing

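No paired analysis was possible because neither group had a replicate sample. Region types, motifs and gene lists were not run, since no annotation or genome of this build was used here. The background source at other tolerances, the autosomes alone, the subsets for summit position, the distances between summits at 2 and 50 kb and the medians at an FDR of at most 5% were chosen after seeing the data. Of 1650 peaks, 256 had an FDR of 0. The number of chromosomes that departed from their length, 10, was 5 at 40 to 49 tags and 0 at an FDR of 0, where fewer peaks were tested, and 7 to 10 under the other settings. The ratio of chromosome 15 reversed to 0.944 at an FDR of 0. The difference on chromosome 21 to the stronger class was -1.8 points at 40 to 49 tags and -3.21 at an FDR of 0, with adjusted intervals that included 0. The neighbour difference to the stronger class passed at 2 kb (-2.85 points) and 50 kb (-4.69) between edges, but not between summits (-1.34 and -4.37). To the weaker class it was -0.75 points at 40 to 49 tags, against 0.737. The summit difference to the weaker class was 0.5 points for the central 33.3% of the width, -1.22 at 30 to 49 tags, -1.58 at 40 to 49 tags, -1.04 at an FDR of at most 5% and 1.05 at an FDR of 0, each with an interval that included 0. To the stronger class it was 1.25 points at an FDR of 0. Median tags over expected were 6.92 at an FDR of at most 5% and 7.28 with unscaled tags. Median summit height was 16.2 with tags rounded to the nearest and 13.6 unscaled. Where the direction reversed or a call was lost for subsets of peaks, the cause beyond the smaller number was not tested. Peaks with under 9 tags are not in the list, so neighbours below that depth were not counted.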
